A study of Mus musculus with 4 samples.

Results

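The MHC class I genes followed here are the classical heavy chains H2-K1 and H2-D1, the nonclassical heavy chains H2-Q4, H2-Q6, H2-Q7, H2-T22, H2-T23 and H2-M3, the light chain B2m and the peptide transporter subunit Tap1. They are 10 of the 32285 genes counted in each library and were taken by name. The cells came from YUMMER1.7 tumors, a mouse melanoma line grown subcutaneously in male C57BL/6J WT mice aged 7–8 weeks. From day 7 the mice received an isotype antibody, anti–PD-1 at 10 mg/kg, anti-MIF at 20 mg/kg, or both antibodies (anti–PD-1/anti-MIF), intraperitoneally. The long treatment cohort received 4 doses over 2 weeks, and the short treatment cohort received 2 doses over 1 week. CD45+ and CD45- cells were recombined at 80% and 20%, and the 4 arms of a cohort were marked with hashtag antibodies and pooled into 1 library. The files hold 5 hashtags, and the one named anti-PD1-MIF-DDT, which the labels do not describe, was kept out of all tests. Each arm of a cohort is therefore 1 sample whose mice are not told apart, and cohort and library cannot be told apart.

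By single-cell RNA-Seq, 23702910 gene UMIs from 2516 barcodes were counted for the long cohort and 31799441 from 4987 barcodes for the short cohort. After filtering, 1671 and 3119 cells were assigned to the 4 arms. The barcode sequences of the libraries had 20 in common. Cells were gated by UMIs of marker genes: Cd3e for T cells, Ncr1 for NK cells, Siglech for plasmacytoid dendritic cells (pDCs), Ccr7 together with Fscn1 for mature dendritic cells (DCs), and at least 5 UMIs of Lyz2 for myeloid cells. This gave 568 T cells, 139 NK cells, 92 pDCs, 149 mature DCs and 2558 myeloid cells over the 8 arms, and 1256 cells carried no gate. UMIs were summed per arm and gate, and sums of at least 10 cells were kept, which left 8 arms for T cells, 4 for NK cells, 5 for pDCs, 4 for mature DCs and 8 for myeloid cells. Levels are given as CPM, the UMIs of the gene scaled to a common total of gene UMIs in the sum, a share of the RNA and not an amount per cell.

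Each gate was highest for the marker list of its name, but the lists were not exclusive. The 5 T cell markers summed to a mean of 4211 CPM in T cells, 160 CPM in NK cells and 1.6 CPM in myeloid cells. The 6 NK cell markers summed to 8282 CPM in NK cells and 590 CPM in T cells, where Prf1 was the most abundant. The 6 pDC markers summed to 11756 CPM in pDCs, 561 CPM in myeloid cells, 352 CPM in mature DCs and 305 CPM in T cells, with Bst2 the most abundant throughout. The 6 mature DC markers summed to 11512 CPM in mature DCs and 78.1 CPM in T cells. The 7 myeloid markers summed to 14862 CPM in myeloid cells, 220 CPM in T cells, 1152 CPM in mature DCs, 5856 CPM in NK cells and 6111 CPM in pDCs, where Tyrobp led the last 3. Levels of the gating genes themselves, Lyz2 included, were set by the gates. The part of other cells' RNA in the results was not tested. The myeloid gate was not uniform between arms: the 4 neutrophil markers S100a8, S100a9, Csf3r and Retnlg summed to 7070 CPM in the long cohort anti–PD-1/anti-MIF arm and to between 97.5 and 1158 CPM in the other 7 arms, with S100a8 the most abundant by mean. C1q cells were taken as myeloid cells with C1qa UMIs and without Ly6c2 UMIs, so cells with both genes were not counted among them. These C1q cells made up 4 of 74, 13 of 95, 180 of 470 and 27 of 124 myeloid cells in the long cohort (isotype, anti–PD-1, anti-MIF and both) and 57 of 442, 19 of 778, 15 of 326 and 3 of 249 in the short cohort. The part of the neutrophil markers and of C1q cells in the myeloid values below was not tested. Results are also given without the long cohort anti–PD-1/anti-MIF arm where it decides the call of a member. Tumor cells could not be followed, because only 11 cells of the 8 arms carried melanoma markers without Ptprc or a lineage gate.

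Class I molecules present peptides from inside the cell. The proteasome cuts proteins into peptides, the Tap1/Tap2 transporter carries the peptides into the endoplasmic reticulum, and chaperones load them onto a heavy chain that is paired with β2-microglobulin, the product of B2m. CD8 T cells read the complexes of H2-K and H2-D, NK cells read class I through inhibitory and activating receptors, and interferons raise transcription of most of these genes, in part through IRF1 and NLRC5. H2-T23 encodes Qa-1, whose peptide complex is read by the Klrd1/Klrc1 receptor, H2-Q7 belongs to the Qa-2 genes, H2-M3 presents formylated peptides, and the product of H2-T22 is a ligand of some γδ T cells. Apart from B2m on chromosome 2 (chr2:122147686-122153083), the members lie on chromosome 17 within 3278468 bases, from H2-K1 (chr17:33996017-34000347) to H2-M3 (chr17:37270220-37274484), on GRCm38. Tap1 (chr17:34187553-34197225) shares exonic bases with Psmb9 on the other strand, as H2-Q4 does with Gm11131 and H2-T22 with A930015D03Rik.

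Shown are promoters of 3 heavy chains that were higher in T cells than in myeloid cells and that carry κB letters, which were chosen for that match. H2-Q4, which was also higher in T cells and by more than H2-K1, lacks the exact κB letters searched. Its window holds a close variant, GGGGATTTCC, and variants were not counted. It is not printed because the window holds exonic bases of Gm11131. H2-T22 was higher in T cells without the exact κB letters, and H2-D1 has them and did not pass the test. The exact match and the difference thus did not go together in all members. Each line gives the 250 bases before the start in RefSeq on GRCm38.p6, 5′ to 3′ on the strand of the gene, with matches in capitals. The letters searched on both strands were GGGGATTCC (a κB element), TTTCACTT (part of an interferon-stimulated response element), TGACG (a cAMP response element core) and ATTGG (an inverted CCAAT box), and no matches overlapped.
H2-K1 (chr17:34000348-34000597, minus strand): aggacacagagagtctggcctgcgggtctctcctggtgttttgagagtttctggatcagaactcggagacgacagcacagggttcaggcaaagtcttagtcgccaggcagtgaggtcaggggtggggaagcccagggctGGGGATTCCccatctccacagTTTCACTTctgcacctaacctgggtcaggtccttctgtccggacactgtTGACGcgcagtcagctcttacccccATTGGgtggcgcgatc
H2-Q6 (chr17:35424600-35424849, plus strand): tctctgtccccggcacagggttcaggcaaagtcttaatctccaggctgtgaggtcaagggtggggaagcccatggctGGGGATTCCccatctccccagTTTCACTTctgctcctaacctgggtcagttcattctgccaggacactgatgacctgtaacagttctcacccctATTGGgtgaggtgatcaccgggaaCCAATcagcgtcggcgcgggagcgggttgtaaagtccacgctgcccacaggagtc
H2-Q7 (chr17:35438905-35439154, plus strand): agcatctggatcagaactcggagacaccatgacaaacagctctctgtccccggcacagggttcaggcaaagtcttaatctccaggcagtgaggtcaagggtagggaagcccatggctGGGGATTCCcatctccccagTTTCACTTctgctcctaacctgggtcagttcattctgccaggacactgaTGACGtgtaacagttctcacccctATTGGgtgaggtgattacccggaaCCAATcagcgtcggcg
The κB letters began 111, 173 and 133 bases before the start, and the interferon letters 90, 152 and 113 bases before it, in H2-K1, H2-Q6 and H2-Q7. H2-Q6 had no TGACG in this window. All 10 members had a promoter entry. GGGGATTCC was found in 4 of 10 (H2-K1, H2-D1, H2-Q6 and H2-Q7), against 0.213% of 32851 promoter windows of the same length. TTTCACTT was found in 7 of 10, the heavy chains except H2-T23, against 1.36% of windows. TGACG was found in 8 of 10 against 17.8% and ATTGG in 10 of 10 against 33.8%. These matches are letters only and are not shown to be sites in use.

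T cells were first compared with myeloid cells over the 8 arms that hold both. H2-K1 ranged from 2362 to 3798 CPM in T cells, with a median of 2695, and from 993 to 1703 CPM in myeloid cells, with a median of 1343. The lowest T cell arm lay above the highest myeloid arm. The difference was 2.01-fold (log2 fold change 1.01 ± 0.10 SE, adjusted p = 2.07e-10, edgeR), higher in T cells in 8 of 8 arms. H2-D1, the other classical heavy chain, ranged from 1798 to 3542 CPM in T cells, with a median of 2460, and from 1671 to 2718 CPM in myeloid cells, with a median of 2242. The H2-D1 ranges overlapped, and its log2 fold change was 0.07 ± 0.11 (adjusted p = 0.571). B2m was also not separated, with a mean of 3353 ± 240 CPM (SD, n = 8 arms) in T cells and 3408 ± 494 in myeloid cells.

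The Qa-2 region genes differed most. H2-Q7 ranged from 640 to 848 CPM in T cells, with a median of 732, and from 90.7 to 166 CPM in myeloid cells, with a median of 139, a 5.09-fold difference (log2 fold change 2.35 ± 0.12, adjusted p = 4.35e-17). H2-Q6 ranged from 262 to 497 CPM in T cells, with a median of 336, and from 46.9 to 107 CPM in myeloid cells, with a median of 80.7, a 3.97-fold difference (adjusted p = 7.23e-14). Neither gene overlapped between the lineages. H2-Q4 was 2.22-fold (adjusted p = 9.18e-08) and H2-T22 was 1.54-fold (adjusted p = 4.36e-04) higher in T cells in 8 of 8 arms, although their ranges overlapped between arms. H2-T23, H2-M3 and Tap1 did not pass the test, with log2 fold changes of -0.17, 0.05 and 0.01. In all, 5 of 10 members were higher in T cells and 0 were lower, beside 66.7% of the 6089 genes tested that differed in either direction and 35.6% that were higher. The members' median log2 fold change was 0.35, and that of all genes was 0.07. The 5 calls held in each cohort alone: for H2-K1 the log2 fold change was 0.96 in the long and 0.86 in the short cohort, and for H2-Q7 it was 2.16 and 2.34. Without the long cohort anti–PD-1/anti-MIF arm 7 members were called, because H2-T23 (log2 fold change -0.33, adjusted p = 0.0158) and B2m (-0.23, adjusted p = 0.0456) were then lower in T cells. H2-T22 lost its call without the filter on low counts.

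**Figure D1:**
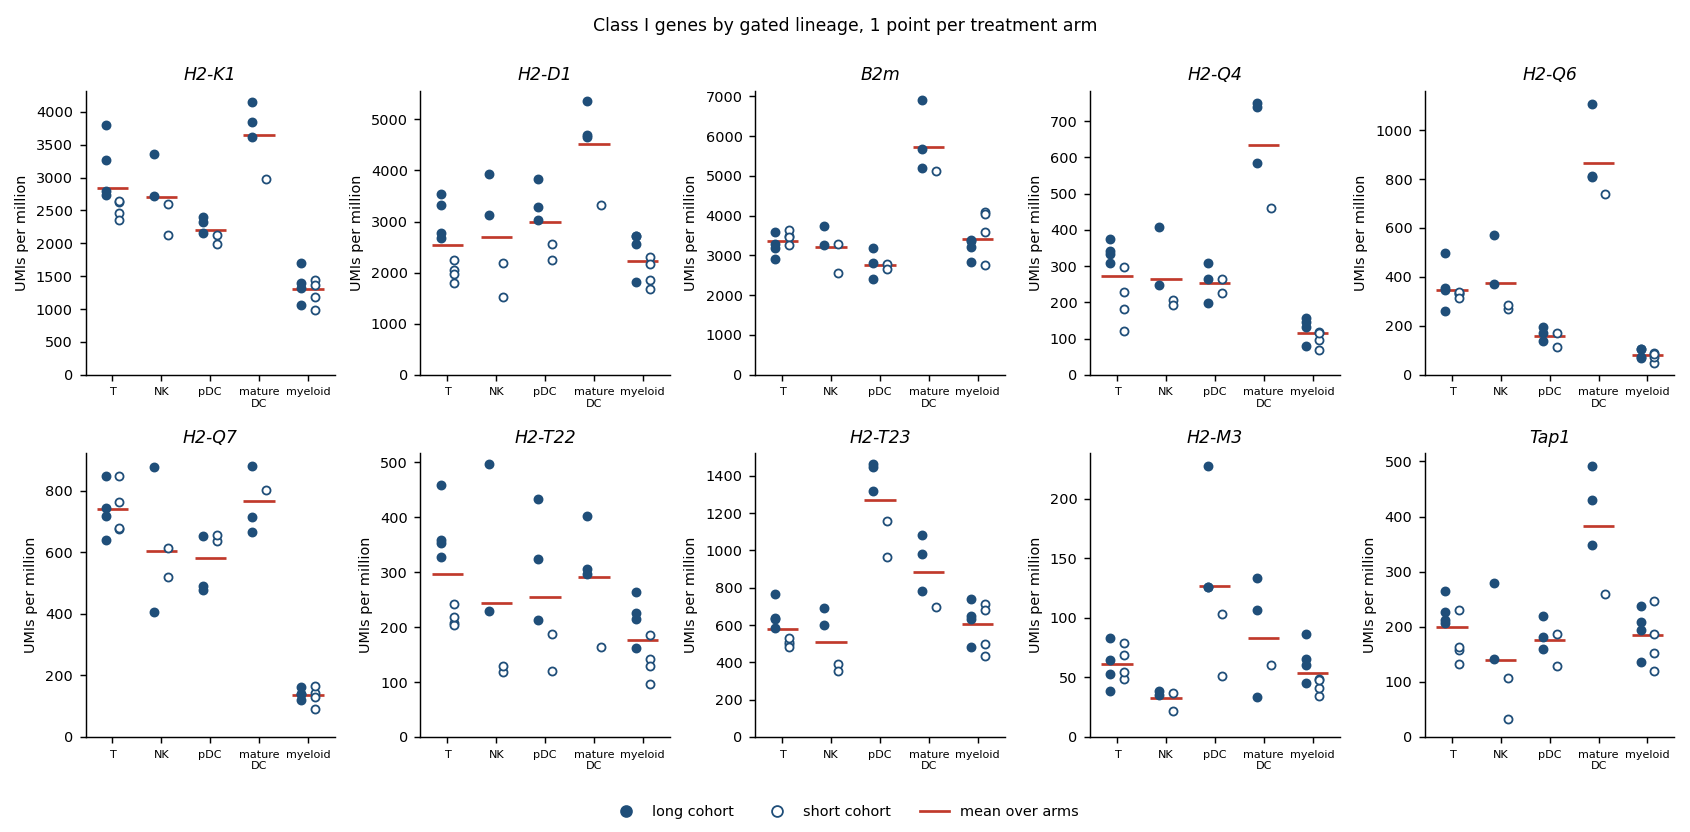
CPM (y axis, linear, from 0) of the 10 members in 5 gated lineages (x axis), with 1 point per treatment arm, filled for the long cohort and open for the short cohort, and a line at the mean over arms. H2-K1, H2-Q6 and H2-Q7 in T cells sit above all 8 myeloid arms, H2-T23 is highest in pDCs, and mature DCs lead for B2m, H2-D1, H2-Q4, H2-Q6 and Tap1.

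NK cells were compared with myeloid cells in the 4 arms that held at least 10 of them. Their values for H2-K1 were 3359 and 2726 CPM in the long cohort anti–PD-1 and anti-MIF arms, and 2121 and 2596 CPM in the short cohort isotype and anti–PD-1 arms, above the 8 myeloid arms. H2-K1 was 1.82-fold (adjusted p = 1.56e-06), H2-Q4 was 1.97-fold (adjusted p = 7.64e-04), H2-Q6 was 4.06-fold (adjusted p = 6.72e-10) and H2-Q7 was 4.03-fold higher (adjusted p = 1.68e-11), each in 4 of 4 arms. Tap1 was lower, with 280 and 142 CPM in the 2 long cohort arms and 32.5 and 106 CPM in the 2 short cohort arms (log2 fold change -0.84 ± 0.24, adjusted p = 4.74e-03). These values rest on 22, 8, 3 and 52 UMIs, in that order. Tap1 was lower in 3 of 4 arms, and in the long cohort alone its log2 fold change was -0.29 (adjusted p = 0.628). The Tap1 call was also lost without the short cohort anti–PD-1 arm. H2-T23 was lower as well (log2 fold change -0.53 ± 0.17, adjusted p = 9.89e-03), and its call was lost under the same omissions. Thus 6 of 10 members were called, beside 46.9% of all genes in either direction, and 4 were higher, beside 21.4% of all genes. As UMIs per cell 8 members were called, 4 higher and 4 lower, beside 13.7% of all genes higher and 30.1% lower.

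Set against T cells, NK cells differed in 1 of 10 members, Tap1 (log2 fold change -0.85 ± 0.25, adjusted p = 0.0233), beside 9.53% of all genes. This call was lost in 8 of 23 alternative settings. H2-K1 differed by -0.14 ± 0.13 and H2-Q6 by 0.03 ± 0.20. The comparisons that use T cells as the reference were added after the data had been seen.

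Mature DCs, the migratory DCs that carry Ccr7, had the highest levels of most members. B2m was 6906, 5212 and 5679 CPM in the long cohort isotype, anti–PD-1 and anti-MIF arms and 5112 CPM in the short cohort isotype arm, and no other lineage reached these values in any arm. It was 1.69-fold higher than in myeloid cells (adjusted p = 2.35e-06). H2-D1 was 4660, 5360, 4697 and 3329 CPM in the same arms, 1.79-fold higher (adjusted p = 3.01e-06), and H2-K1 was 2.66-fold higher (adjusted p = 4.97e-11). H2-Q6 showed the largest difference of any member in any lineage comparison, at 1106, 808, 814 and 737 CPM against at most 107 CPM in a myeloid arm, 10.5-fold (log2 fold change 3.39 ± 0.18, adjusted p = 1.51e-16). H2-Q7 was 5.75-fold and H2-Q4 4.81-fold higher. Tap1 was 1.82-fold higher (adjusted p = 2.47e-04). H2-T23 was 1.35-fold higher (adjusted p = 0.0169), a call that was lost in 9 of 23 alternative settings. H2-T22 and H2-M3 did not pass, with log2 fold changes of 0.48 ± 0.21 and 0.54 ± 0.26. All 8 called members were higher, beside 53.2% of all genes in either direction and 21.4% higher, and the members' median log2 fold change was 0.85, whereas that of all genes was -0.19.

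Against T cells, mature DCs had higher levels of 7 of 10 members, beside 57.5% of all genes called in either direction and 24% higher. B2m was 1.83-fold, H2-D1 1.71-fold, H2-Q4 2.17-fold, H2-Q6 2.64-fold and Tap1 1.81-fold higher. H2-Q7 was the exception among the Qa-2 region genes, at a mean of 767 ± 95.6 CPM (SD, n = 4 arms) in mature DCs and 740 ± 77.6 CPM (n = 8 arms) in T cells (log2 fold change 0.18 ± 0.16, adjusted p = 0.358).

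**Figure D2:**
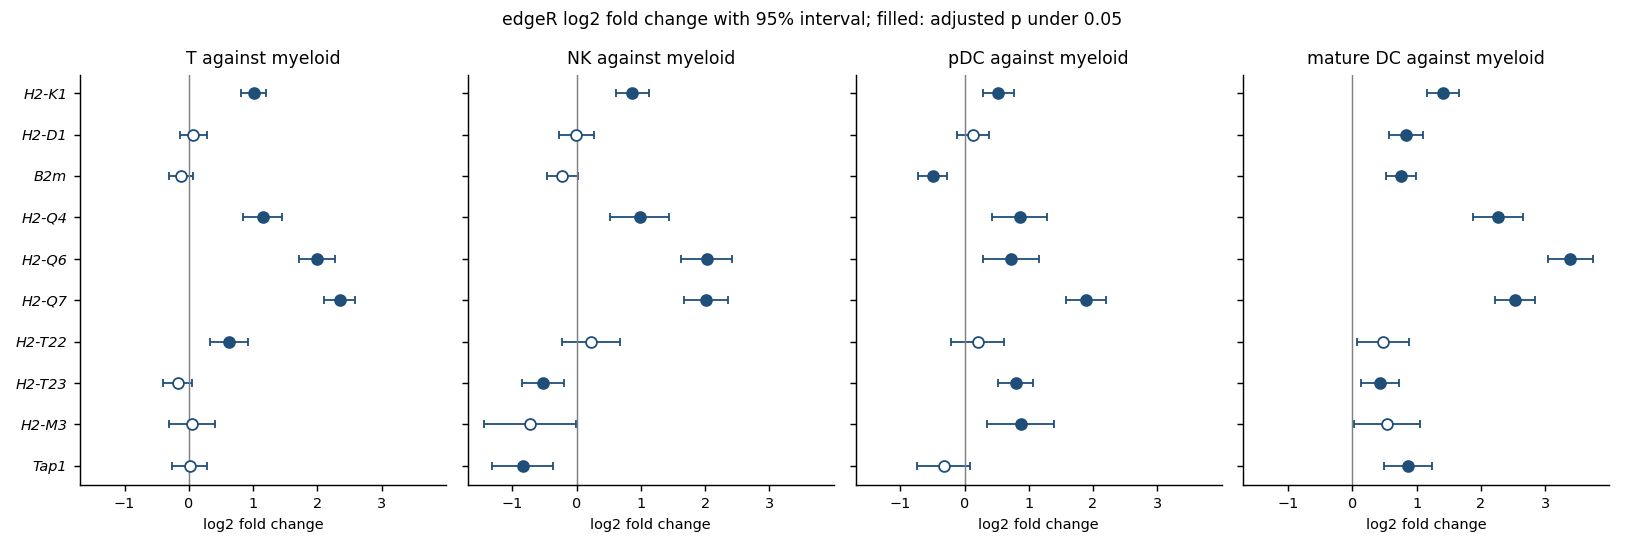
edgeR log2 fold change (x axis) of each member in T cells, NK cells, pDCs and mature DCs against myeloid cells, with bars for the 95% interval and filled points for an adjusted p under 0.05. H2-Q7 lies between 1.89 and 2.52 in the 4 panels, and H2-D1 departs from 0 only in mature DCs.

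The pDC profile differed from T cells and myeloid cells in H2-T23, and pDCs were not tested against NK cells or mature DCs. H2-T23 was 1448, 1320 and 1465 CPM in the long cohort isotype, anti–PD-1 and anti-MIF arms, and 1159 and 966 CPM in the short cohort isotype and anti–PD-1/anti-MIF arms. All 5 arms lay above the T cell maximum of 764 CPM and the myeloid maximum of 741 CPM. The difference was 1.74-fold against myeloid cells (adjusted p = 1.52e-05) and 1.96-fold against T cells (adjusted p = 1.30e-06), with the first call lost in 3 of 23 alternative settings, among them the short cohort alone (adjusted p = 0.0632), and the second held in 23 of 23. H2-M3 was 1.83-fold higher than in myeloid cells in 5 of 5 arms (adjusted p = 8.40e-03), but this call was lost in 7 of 22 alternative settings. B2m was lower than in myeloid cells (0.71-fold, edgeR adjusted p = 5.51e-04), in 4 of 5 arms. When the sums were scaled by total UMIs only, 0 members were called lower. H2-Q7 was 3.70-fold higher. H2-K1 was 1.44-fold higher but lost its call in 5 of 23 settings, among them the long cohort alone (log2 fold change 0.35, adjusted p = 0.221), and H2-Q6, at 1.65-fold (adjusted p = 8.60e-03), did not hold in 10 of 23 alternative settings. In all 7 of 10 members were called against myeloid cells, 6 of them higher, beside 44.4% of all genes in either direction and 21% higher, and 6 of 10 were called against T cells beside 42.8%. Against T cells H2-Q6 was lower (0.42-fold, adjusted p = 1.47e-05) in 5 of 5 arms.

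Because the members did not move together, the makeup of the class I message differed between lineages. A UMI marks 1 molecule whatever the length of the gene, but reads that fit several genes are not counted, so shares are compared between lineages and not between genes. Of the UMIs of the 8 heavy chains, H2-D1 made up 47.3% ± 1.76 in myeloid cells (SD, n = 8 arms) and 32.8% ± 2.83 in T cells (n = 8), without overlap. H2-K1 made up 28.0% ± 1.76 in myeloid cells and 37.1% ± 1.82 in T cells. H2-Q7 rose in share from 2.91% ± 0.36 in myeloid cells to 9.84% ± 1.65 in T cells, and H2-T23 was 16.2% ± 1.33 in pDCs (n = 5), 12.9% ± 1.11 in myeloid cells and 7.57% ± 0.42 in T cells. The summed heavy chains came to 4702 ± 845 CPM in myeloid cells, 7684 ± 1420 in T cells, 7420 ± 2200 in NK cells, 7832 ± 1025 in pDCs and 11692 ± 1655 in mature DCs.

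The ratio of H2-K1 to H2-D1 UMIs was between 0.489 and 0.640 in the 8 myeloid arms and between 0.984 and 1.47 in the 8 T cell arms. Its log2 was higher in T cells by 0.94 ± 0.16 (SD, n = 8 arms), in 8 of 8 arms (p = 0.0078 in an exact permutation test that flips signs, 2-sided, and 8 arms can give no smaller p). The ratio was chosen after the data had been seen. It does not depend on how the arms are scaled, and it averaged 1.08 in NK cells, 0.821 in mature DCs and 0.755 in pDCs. B2m UMIs per summed UMI of H2-K1 and H2-D1 averaged 0.981 ± 0.162 in myeloid cells, 0.644 ± 0.132 in T cells and 0.542 ± 0.085 in pDCs.

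**Figure D3:**
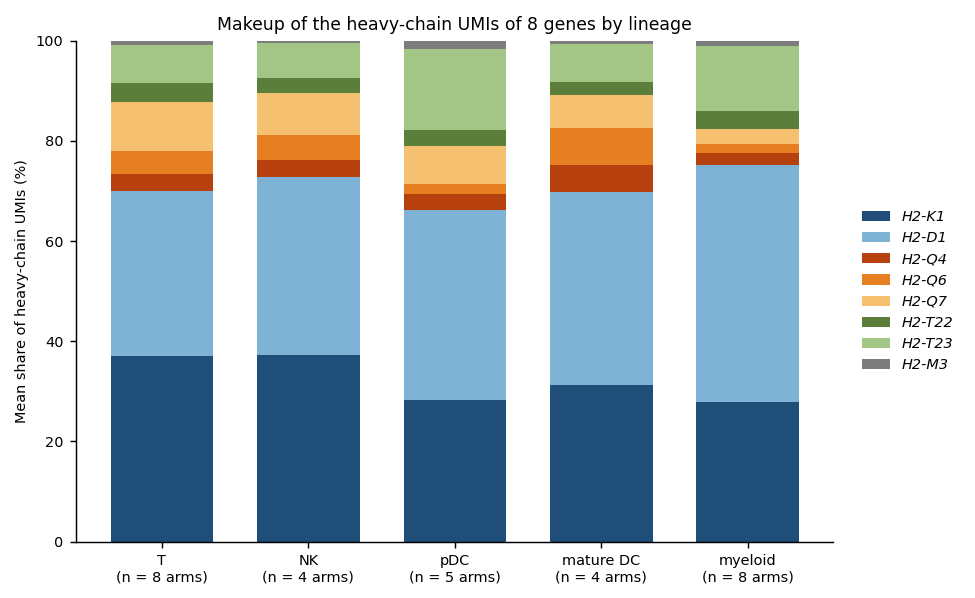
Stacked bars of the mean share (y axis, %) that each of 8 heavy-chain genes takes of their summed UMIs in each lineage (x axis), averaged over arms. H2-D1 falls from 47.3% in myeloid cells to 32.8% in T cells, and H2-T23 is largest in pDCs at 16.2%.

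These levels are shares of RNA, and the lineages differ in RNA per cell. The median gene UMIs per cell ranged from 3468 to 5575 over the arms in T cells and from 6367 to 12364 in myeloid cells. When UMIs were taken per cell, the median log2 fold change of all genes between T and myeloid cells moved from 0.07 to -0.57. H2-K1 (log2 fold change 0.37), H2-Q4 (0.52), H2-Q6 (1.34) and H2-Q7 (1.70) still had more UMIs per T cell, and these 4 were called. H2-D1 (-0.57), B2m (-0.76), H2-T23 (-0.80), H2-M3 (-0.58) and Tap1 (-0.62) then had fewer UMIs per T cell, all called. Of all genes, 15.4% were then higher and 54.5% lower in T cells. H2-T22 was at -0.01 and lost its call. A lower number of UMIs per cell and a shallower capture of RNA cannot be told apart here. Per cell, mature DCs held 102 ± 24.8 heavy-chain UMIs, pDCs 56.0 ± 9.70, NK cells 49.1 ± 21.4, myeloid cells 42.5 ± 14.1 and T cells 42.1 ± 14.6.

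**Figure D4:**
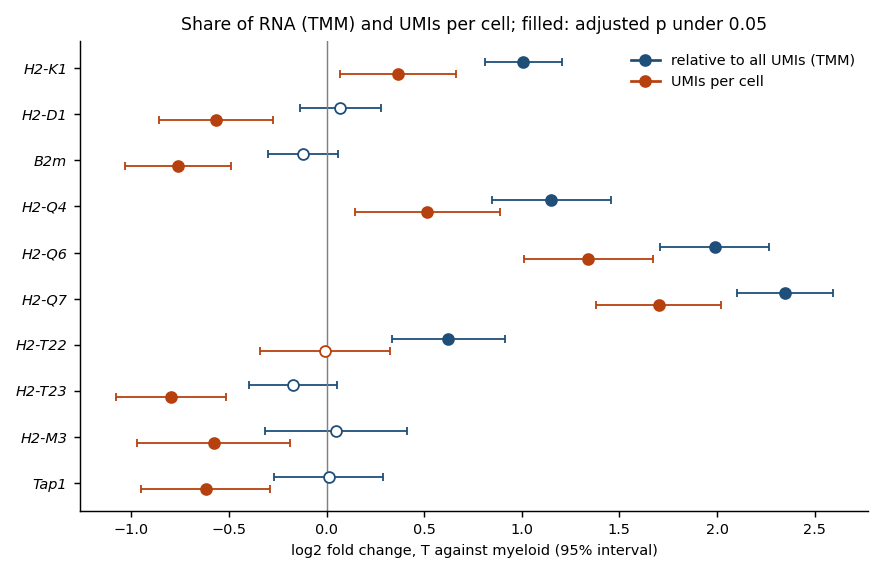
edgeR log2 fold change of T against myeloid cells (x axis, bars 95% interval) for each member, relative to all UMIs and as UMIs per cell, filled for an adjusted p under 0.05. The per-cell values lie lower for all 10 members, and H2-K1, H2-Q4, H2-Q6 and H2-Q7 stay above 0 on both scales.

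Narrower cell groups were compared next. CD8 T cells (Cd8a UMIs) were compared with CD4 T cells (Cd4 UMIs) over 3 arms that held both, and 0 of 10 members passed in edgeR or DESeq2, with 0 at an unadjusted p under 0.05, beside 6.62% of the 3037 genes tested. H2-K1 differed by a log2 fold change of -0.39 ± 0.21 and H2-D1 by -0.40 ± 0.22. Without the short cohort anti–PD-1 arm, 1 member, H2-K1, was called. Myeloid cells with UMIs of C1qa, a marker of tissue macrophages, and none of Ly6c2 were compared with the reverse. Ly6c2 is a marker of monocytes, and cells with both genes or neither were left out. Levels in the C1q cells were lower for 4 of 10 members and higher for 0, beside 27.6% of all genes called in either direction. H2-T23 averaged 369 ± 109 CPM in C1q cells (SD, n = 6 arms) and 654 ± 138 CPM in Ly6c2 cells (n = 8), 0.59-fold (adjusted p = 2.11e-04), lower in 6 of 6 arms and called in 23 of 23 alternative settings. H2-T22 (0.66-fold, adjusted p = 5.56e-03), Tap1 (0.70-fold, adjusted p = 0.0118) and H2-D1 (0.84-fold, adjusted p = 0.0352) were lower in 6 of 6 arms, but lost their calls in 4, 5 and 11 of 23 settings. H2-K1 did not pass the test, at a log2 fold change of 0.18 ± 0.12. In the short cohort alone, H2-Q6 (log2 fold change 0.84, adjusted p = 0.0483) and H2-Q7 (0.73, adjusted p = 0.0342) were higher in C1q cells and H2-T23 was the only member called lower, whereas in the long cohort H2-Q6 and H2-Q7 were at 0.30 and 0.01 and neither passed. cDC1 cells (Xcr1 or Clec9a), the DCs that cross-present antigen, were compared with myeloid cells without these genes. They were higher in 1 of 10 members, H2-Q6 (1.60-fold, edgeR adjusted p = 0.0468, n = 4 arms), and lower in 0. Among all genes 11.4% were called in either direction, and the H2-Q6 call was lost in 11 of 22 settings. One of these left out the long cohort anti–PD-1/anti-MIF arm (H2-Q6 log2 fold change 0.59, edgeR adjusted p = 0.155). The cDC1 cells were taken at any Lyz2 level, so 61 of the 95 in these arms lay outside the myeloid gate, whereas their reference was chosen for Lyz2, and the part of that choice in the difference was not tested.

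The treatment question was whether either antibody was accompanied by a different level of these genes in T or myeloid cells. In the long cohort, T cell H2-K1 was 2742 CPM in the isotype arm, 2804 CPM in the anti–PD-1 arm, 3275 CPM in the anti-MIF arm and 3798 CPM under both antibodies. In the short cohort the same arms had 2465, 2624, 2647 and 2362 CPM. The combination arm was thus the highest T cell arm of the long cohort and the lowest of the short cohort. In CD8 T cells the ratio of the combination to anti–PD-1 was 1.26 (exact 95% interval 1.15 to 1.38) in the long cohort and 0.85 (0.74 to 0.98) in the short cohort for H2-K1, and 1.24 (1.12 to 1.36) and 0.82 (0.70 to 0.96) for H2-D1. Of the 10 members, the long cohort had 2 with an interval above 1, 0 below 1 and 8 that held 1. The short cohort had 0 above 1, 4 below 1, B2m and H2-Q4 among them, and 6 that held 1. The B2m interval there ended at 0.9996. In the whole T cell gate, 4 members had an interval above 1 and 0 below in the long cohort. The short cohort had 0 above and 3 below. Of the 5501 genes tested in T cells, the long cohort had 4.27% above and 4.25% below 1. The short cohort had 4.56% above and 4.65% below. These shares are for the whole T cell gate, and none is given for CD8 T cells, so the CD8 counts have no background. The interval is relatively narrower for more abundant genes. In CD8 T cells H2-Q6 was at 1.25 and 1.18, with intervals that held 1. All these intervals cover counting error only. Those of CD8 T cells rest on 35 and 48 cells in the long and 21 and 114 cells in the short cohort. Myeloid H2-K1 was 1326, 1398, 1703 and 1069 CPM in the long cohort and 993, 1447, 1185 and 1361 CPM in the short cohort, in the same order of arms. In the long cohort the combination arm, the one with the high neutrophil markers, was the lowest myeloid arm for all 10 members. It was at 1807 CPM for H2-D1, 482 CPM for H2-T23 and 136 CPM for Tap1. For the ratio of the combination to anti–PD-1 in long cohort myeloid cells, 0 members had an interval above 1 and 9 below. In the short cohort 2 lay above and 3 below. The share of all genes that met either rule in myeloid cells is not given here, so these counts have no background.

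An additive model over the 8 arms, in which the arms stand in as replicates of each other, called 0 of 10 members for anti-MIF and 0 of 10 for anti–PD-1, in T cells and in myeloid cells, with edgeR and with DESeq2. The calls among all genes with edgeR were 0% in each of these 4 comparisons, from 5501 genes in T cells and 9485 in myeloid cells, although 235 and 212 genes in T cells and 540 and 402 in myeloid cells had an unadjusted p under 0.05 for anti-MIF and anti–PD-1. DESeq2 called 2 genes for anti-MIF in myeloid cells and 0 in the other 3. Among the members only H2-M3 had an unadjusted p under 0.05, for anti-MIF in T cells (log2 fold change 0.57 ± 0.24, higher in 4 of 4 pairs of arms). For H2-K1 the log2 fold change with anti-MIF was 0.16 ± 0.11 in T cells and -0.00 ± 0.16 in myeloid cells, and with anti–PD-1 it was 0.02 ± 0.11 and 0.06 ± 0.16. The difference of the effects between T and myeloid cells was called for 0 of 10 members, for anti-MIF (0% of 9037 genes), anti–PD-1 (0.0221%) and the cohort (0.0775%). At an unadjusted p under 0.05 there were 0, 0 and 1 members, and DESeq2 called 0. Over all genes the anti–PD-1 difference had 2 calls, and 24 without the long cohort isotype arm. The cohort difference had 7 calls, and 80 without the filter on low counts.

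**Figure D5:**
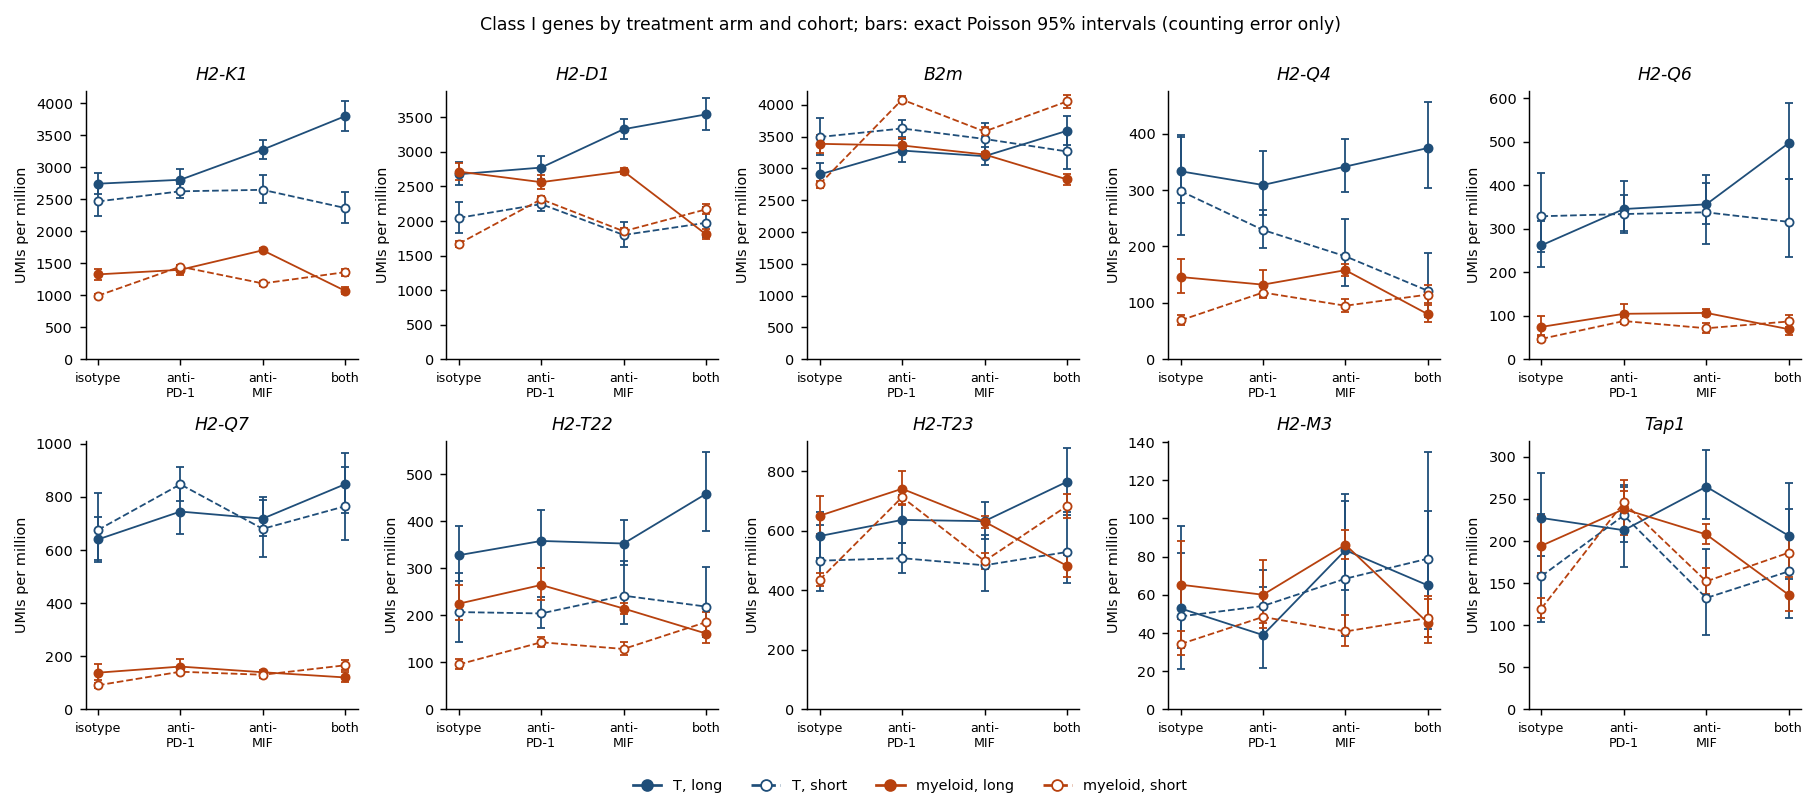
CPM (y axis, linear, from 0) of each member in the 4 treatment arms (x axis) for T and myeloid cells in both cohorts, with exact Poisson 95% intervals that cover counting error only; lines join the arms of 1 cohort. T cell H2-K1 runs from 2742 to 3798 CPM in the long cohort and from 2362 to 2647 CPM in the short cohort.

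Between cohorts, T cell H2-D1 was 2676, 2773, 3328 and 3542 CPM in the long cohort arms and 2045, 2245, 1798 and 1974 CPM in the short cohort arms (isotype, anti–PD-1, anti-MIF and both). The lowest long cohort arm lay above the highest short cohort arm. The difference was 1.46-fold (adjusted p = 0.0182), and H2-T22 was 1.64-fold higher in the long cohort (adjusted p = 0.0213), also without overlap. These were 2 of 10 members, both higher in the long cohort, beside 6.73% of all genes called in either direction. The makeup of the T cell gate moved with the cohort, since Cd8a and Cd8b1 summed to between 1761 and 2388 CPM in the long cohort arms and between 633 and 1553 CPM in the short cohort arms. Among CD8 T cells alone, H2-D1 was between 2580 and 3549 CPM in the long cohort arms and between 1673 and 2258 CPM in the short cohort arms, and H2-T22 was between 265 and 472 CPM and between 186 and 259 CPM, without overlap for either gene. Without the anti–PD-1/anti-MIF arm of either cohort 0 members were called, and 1 was called without the long isotype, long anti–PD-1, short anti–PD-1 or short anti-MIF arm. In myeloid cells 0 of 10 were called by edgeR, beside 6.14% of all genes, with 2 at an unadjusted p under 0.05, and DESeq2 called 1, H2-T22. Without the long combination arm 2 were called in myeloid cells, H2-T22 and H2-M3. The calls among all genes also moved with single arms, since in myeloid cells 582 genes were called and 2 without the long anti–PD-1 arm, and in T cells 370 were called and 108 without the long anti–PD-1/anti-MIF arm. As UMIs per cell, 9 of 10 members were higher in the long cohort in both lineages, beside 38% of all genes in T cells and 38.4% in myeloid cells, and the median log2 fold change of all genes was then 0.58 and 0.53.

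Other genes of the class I pathway were counted from a list of 57, of which 53 are in the files and 42 could be tested in the lineage comparisons. In T cells against myeloid cells 13 were higher and 21 lower, beside 66.7% of all genes called and 35.6% higher, with a median log2 fold change of -0.31. The 5 largest differences were in receptors that bind class I and in interferon-γ: Cd8b1 averaged 793 ± 302 CPM in T cells (SD, n = 8 arms), Cd8a 799 ± 270, Klrc1 442 ± 169, Ifng 307 ± 242 and Cd160 56.5 ± 29.7, and none exceeded a mean of 0.5 CPM in myeloid cells. In NK cells 11 were higher and 15 lower, beside 46.9% of all genes called and 21.4% higher. The Ly49 receptors Klra4, Klra7 and Klra8, which are close copies of each other and may share reads, averaged 419 ± 181, 623 ± 468 and 396 ± 87.7 CPM there (n = 4 arms). Pirb and Ifngr2 had 0 UMIs in the NK sums, which allows up to 4.19 CPM by counting error, and averaged 178 ± 24.9 and 112 ± 22.6 CPM in myeloid cells.

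In pDCs 7 pathway genes were higher and 12 lower than in myeloid cells, beside 44.4% of all genes called and 21% higher. Cd8b1 averaged 477 ± 137 CPM (n = 5 arms), Cd8a 240 ± 152 and Klrd1 423 ± 130, whereas Lilrb4a (4.5 ± 6.3) and Pira2 (6.6 ± 6.3) were below their myeloid levels of 630 ± 115 and 55.0 ± 18.9. No UMI of the 5 T cell markers or the 6 NK cell markers was counted in the pDC sums. In mature DCs 15 were higher and 11 lower, beside 53.2% of all genes called and 21.4% higher. The largest differences were Cd1d1 (154 ± 53.9 against 4.2 ± 1.7 CPM), Cd8a (18.8 ± 13.5 against 0.2 ± 0.3), Klrd1 (95.5 ± 40.6 against 9.5 ± 11.9), Lilrb4a (16.3 ± 12.7 against 630 ± 115) and H2-T24 (3.7 ± 7.4 against 31.7 ± 7.2). By group, 5 of 9 proteasome genes were higher and 1 was lower in mature DCs, and 0 were higher in T cells, NK cells and pDCs, where 6, 4 and 4 were lower. Of 7 loading and transport genes, 3 were higher and 3 lower in mature DCs, 2 and 4 in T cells, and 1 and 0 in NK cells and in pDCs. The shares of all genes that were lower than in myeloid cells were 31.2% in T cells, 25.5% in NK cells, 23.4% in pDCs and 31.7% in mature DCs.

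In the C1q against Ly6c2 comparison 3 of the 31 pathway genes tested were higher and 11 lower, beside 27.6% of all genes called. Among them were Nlrc5 (log2 fold change -1.16 ± 0.19), Irf1 (-0.94 ± 0.20) and H2-T24 (-1.57 ± 0.29), which were lower, and Fcgrt (1.41 ± 0.38), the neonatal Fc receptor, which was higher. Nlrc5 and Irf1 encode interferon-responsive activators of class I transcription. CD8 against CD4 T cells differed in 5 of 27, beside 6.62% of all genes, all higher in CD8 T cells, with the gating gene Cd8a left out: Cd8b1, Cd160, Klrc1, Klrd1 and Ifng. In cDC1 cells 6 of 32 were higher and 2 lower, beside 11.4% of all genes called, among them Klrd1 (3.40 ± 0.62), Fcgrt (1.92 ± 0.26), Hfe (1.70 ± 0.26), Psmb9 (1.07 ± 0.21) and Lilrb4a (-1.83 ± 0.33). Between cohorts, 6 of 33 were higher and 1 lower in long cohort T cells, beside 6.73% of all genes called, with Ifng (1.37 ± 0.33), Cd160 (1.18 ± 0.31), Klrc1 (0.90 ± 0.19) and Cd8b1 (0.82 ± 0.22) higher and Ifnar2 (-0.92 ± 0.25) lower. The T cell gate also held more Cd8a and Cd8b1 RNA in the long cohort, as given above, and its part in these calls was not tested. In myeloid cells 1 of 34, Fcgrt (1.13 ± 0.25), was higher in the long cohort, beside 6.14% of all genes called. Neither antibody changed any of the 33 or 34 tested pathway genes past the threshold with edgeR.

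Across the 29 sums of arm and lineage, H2-K1 varied most closely with H2-Q6 (Pearson r = 0.94), H2-Q7 (0.91) and H2-Q4 (0.91), and B2m with H2-M3 least (-0.03). Among 1516 other genes with a mean of at least 100 CPM, those whose log2(CPM + 10) followed the mean of the members most closely were Sumo2 (r = 0.90), Sri (0.86), Apobec3 (0.84), Rnaset2b (0.83) and Spint2 (0.82). These correlations are descriptions over sums that share libraries and 5 lineages. Sumo2, a ubiquitin-like modifier, averaged 648 CPM in mature DCs, 388 in T cells and 222 in myeloid cells.

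Several members are near copies of other genes. Of the 90-base windows in GENCODE transcripts of each gene, 13.2% for H2-Q6, 13.8% for H2-Q7 and 11.8% for H2-T22 also occur in transcripts of another gene, most often H2-Q7, H2-Q10 and H2-T10, against 0% for B2m, H2-M3 and Tap1 and 1.54% for H2-K1. The split of UMIs between H2-Q6 and H2-Q7 is therefore uncertain. The windows cover whole transcripts and not only the part that was sequenced, so sharing within the sequenced part was not measured.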

How the data were processed

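Single-cell libraries of 2 cohorts were analysed. The authors made the gene and hashtag counts with Cell Ranger 7.1.0 on mm10, and the deposited counts are whole UMIs per gene and cell, without normalization. Seurat 5.1.0, R 4.3.2 and DESeq2 are in the submitters' processing notes, and the annotation version is not given in the sources used here. Here, hashtags were called with HTODemux (Seurat 5.3.0, positive quantile 0.99) in R 4.3.3, and hashtag doublets (425 in the long and 626 in the short library) and negatives (24 and 176) were left out. Cells with 200 to 5000 genes and at most 5% mitochondrial UMIs were kept. Doublets within an arm and free RNA were not removed. A gate needed 1 UMI of its marker, and 5 for Lyz2. Cells in more than 1 of the T, NK, pDC and mature DC gates were left out. T, NK and pDC cells with at least 5 UMIs of Lyz2 were also left out. Mature DCs had no condition on Lyz2, and the part of this in their comparisons was not tested. The hashtag anti-PD1-MIF-DDT, which the labels do not describe, was left out.

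UMIs were summed per arm and gate, and sums of at least 10 cells were tested with edgeR 4.0.16 (quasi-likelihood, filterByExpr, TMM, Benjamini-Hochberg adjustment over all genes, threshold 0.05). Lineages were compared with the arm as a block, and treatments with additive terms for cohort, anti–PD-1 and anti-MIF. Arms carry different treatments and no replicate, so p-values measure the spread between arms. Ratios were tested in Python 3.11.15 with scipy 1.17.1, and DESeq2 1.42.0 was an alternative. The fitting code was tested on simulated data. Gene positions come from GENCODE vM21 on GRCm38, and promoters from RefSeq. All members are named, other pathway genes where they are among the 5 largest changes past the threshold (1 such result is not reported here), and 5 genes by likeness. The members and lists were chosen with earlier results of these data known.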

Additional observations from a re-analysis of the deposited data

Results flagged for a closer look

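The hashtag named anti-PD1-MIF-DDT, which the labels do not describe, marked 322 cells of the long and 993 of the short library. Its myeloid levels lay above the isotype arm of the same cohort, with 95% Poisson intervals that did not overlap, for 5 members in both cohorts, beside 2.28% of the 9485 genes tested in myeloid cells. In T cells this held for 0 members, beside 0.327% of 5501 genes. The intervals are relatively narrower for more abundant genes. H2-K1 was 1490 CPM in the long and 1300 CPM in the short cohort. H2-D1 was 2980 and 2150 CPM, and B2m was 3780 and 3700 CPM. H2-T23 was 887 and 552 CPM, and Tap1 was 312 and 188 CPM. In the short cohort the anti–PD-1 arm lay higher still for all 5, at 1447 CPM for H2-K1, 2315 for H2-D1, 4083 for B2m, 712 for H2-T23 and 246 for Tap1, and the combination arm did for all but Tap1. In the long cohort a described arm lay higher for H2-K1, at 1703 CPM with anti-MIF, and none did for the other 4. The intervals cover counting error only.

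Of 40 combinations of member, antibody and lineage, 11 moved in opposite directions in the 2 cohorts in every pair of arms. The same rule was met over all genes above 0 in every arm by 14.9% (anti-MIF) and 12.6% (anti–PD-1) of 5360 in T cells, beside 3 and 3 of 10 members, and by 15.4% and 12.4% of 9253 in myeloid cells, beside 1 and 4 of 10. The members are correlated with each other and are not independent counts. The difference was not tested, and each cohort has 2 pairs per antibody. The values are the long minus the short cohort mean log2 ratio of CPM. With anti-MIF in T cells they were 0.52 for H2-D1, 0.21 for B2m and 0.97 for H2-Q4. With anti-MIF in myeloid cells the value was -0.79 for H2-T22. Its long cohort pairs were -0.067 without anti–PD-1 and -0.71 with it. The second pair includes the long combination arm with the high neutrophil markers, whose part in it was not tested. With anti–PD-1 in T cells they were 0.34 for H2-T22, -0.58 for H2-M3 and -0.65 for Tap1. With anti–PD-1 in myeloid cells they were -0.69 for H2-D1, -0.47 for B2m, -1.09 for H2-Q4 and -0.89 for H2-M3, a comparison that includes the long combination arm with 7070 CPM of neutrophil markers, whose part in it was not tested.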

How the results depend on the processing

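Taking UMIs per cell reversed 9 results: T against myeloid cells for Tap1 (-0.62), H2-D1 (-0.57), H2-T22 (-0.0074) and H2-M3 (-0.58), pDCs against T cells for B2m (0.17), H2-K1 (0.059) and H2-Q7 (0.081), and the long against the short cohort in T cells for B2m (0.42) and H2-Q7 (0.50). Of the other values for single genes, 3835 kept direction and call, 82 gained a call and 125 lost one. By setting, the members called were as follows. UMIs per cell gave 9 for T against myeloid cells, 9 for the cohorts in each of T and myeloid cells, 0 for NK against T cells and 3 for cDC1. For pDCs against myeloid cells, thinning to 2000 UMIs gave 4, at least 20 cells 2, no filter on low counts 3, the long cohort 3 and the short cohort 4. Mature DCs against myeloid cells gave 5 in the short cohort. NK against T cells gave 0 at the stricter hashtag quantile, at least 5 cells, no arm block and the long cohort, and 2 with Lyz2 at 1 UMI. pDCs against T cells gave 2 with at least 20 cells and 2 in the short cohort. C1q against Ly6c2 gave 2 with Lyz2 at 20 UMIs, 1 thinned, 2 with at least 20 cells and 1 without the arm block. cDC1 gave 0 at the stricter hashtag quantile, Lyz2 at 1 UMI, thinned, at least 20 cells, DESeq2 and the long cohort, 2 with no upper limit on genes or Lyz2 at 20 UMIs, and 3 with at least 5 cells or no arm block. The cohorts in myeloid cells gave 1 with no filter on low counts and 1 with DESeq2. The cause was not tested. Leaving out each arm gave 5 to 7 for T, 4 to 6 for NK, 5 to 7 for pDCs and 7 to 9 for mature DCs against myeloid cells, 0 to 1 for NK, 5 to 6 for pDCs and 7 to 8 for mature DCs against T cells, 0 to 1 for CD8 against CD4, 3 to 4 for C1q, 0 to 1 for cDC1, 0 to 2 for the cohorts in T cells and 0 to 2 in myeloid cells. The antibody comparisons gave 0 members in every setting run. Among all genes, DESeq2 called 70 against 201 for CD8 against CD4 and 181 against 370 for the cohorts in T cells. UMIs per cell moved the split of higher and lower genes from 2165 and 1899 to 935 and 3316 for T, and from 1302 and 1554 to 834 and 1833 for NK against myeloid cells, and from 185 and 185 to 2091 and 57 for the cohorts in T cells. NK, pDC and mature DC sums rest on 4 to 5 arms, which limits their precision.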

Other observations

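The 1256 cells without a gate carried myeloid and neutrophil markers, at summed means of 5319 and 2478 CPM, and are not a lineage. Their H2-K1 averaged 1527 ± 187 CPM (SD, n = 8 arms), their B2m 3127 ± 452 CPM and their H2-T23 578 ± 112 CPM.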
